A study of Mus musculus with 386 samples.

Results

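The betaine and methionine cycle genes described here are Bhmt, Bhmt2, Chdh, Dmgdh, Mat1a, Gnmt, Pemt, Ahcy and Cbs, 9 of the 18820 genes on the array. Each gene was represented by a probe set whose annotation carries that gene's symbol alone, and by the one with the highest mean signal where a gene had several. The data are signals from Affymetrix Mouse Gene 1.1 ST arrays, on which labelled RNA from whole tissue is hybridised to short probes. Kidney was measured on 102 arrays (51 from females and 51 from males) and liver on 101 arrays (49 from females and 52 from males), out of 386 arrays of kidney, liver, brain and lung. All mice were 23 days old and had been bred at one site within a few generations of founders from the Jackson Laboratory. The groups were the 6 reciprocal F1 crosses CASTxPWK, PWKxCAST, CASTxWSB, WSBxCAST, PWKxWSB and WSBxPWK, named with the dam first, and the inbred strains CAST, PWK and WSB. Each cross had 9 to 13 arrays per tissue, each from a separate animal, and 4 to 7 per sex. Levels are given as log2 signals and differences as log2 differences, so that 1 stands for a doubling of signal. Apart from the filter on low signals, levels of different genes were not set against each other, because each gene has its own probes.

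Methionine is turned into S-adenosylmethionine, the methyl donor of most cellular methylation, by the enzyme that Mat1a encodes in adult liver. Methyl transfer leaves S-adenosylhomocysteine, which the Ahcy product splits into adenosine and homocysteine. Homocysteine is either remethylated to methionine, with betaine (BHMT) or methylfolate as the donor, or drawn off towards cysteine by cystathionine beta-synthase (Cbs). Betaine is made from choline, first by choline dehydrogenase (Chdh), and after giving up a methyl group it becomes dimethylglycine, which dimethylglycine dehydrogenase (Dmgdh) oxidises. Liver and kidney proximal tubule are the main sites of these reactions, and kidney medulla also stores betaine as an osmolyte.

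Bhmt, Bhmt2 and Dmgdh lie side by side on mouse chromosome 13. Ahcy lies on chromosome 2, Pemt on chromosome 11, Chdh and Mat1a on chromosome 14, and Cbs and Gnmt on chromosome 17. The DNA before the start of Bhmt is shown because this gene had the widest span of kidney cross means among the 9 genes. The DNA between the start sites of Bhmt2 and Dmgdh is shown because these neighbours are read away from it in opposite directions. Whether either stretch has a part in the differences below was not tested. The sequences are from RefSeq (GRCm38.p6), which held an entry for 8 of the 9 genes. The Bhmt stretch is the 250 bases upstream of its start, chr13:93637759-93638008 on the minus strand, with the hexamer AGGTCA (either strand, the core motif of nuclear receptors) in capitals. The stretch between Bhmt2 and Dmgdh is the 133 bases at chr13:93674303-93674435 on the plus strand, with GGGCGG (either strand, the GC box) in capitals.
Bhmt upstream: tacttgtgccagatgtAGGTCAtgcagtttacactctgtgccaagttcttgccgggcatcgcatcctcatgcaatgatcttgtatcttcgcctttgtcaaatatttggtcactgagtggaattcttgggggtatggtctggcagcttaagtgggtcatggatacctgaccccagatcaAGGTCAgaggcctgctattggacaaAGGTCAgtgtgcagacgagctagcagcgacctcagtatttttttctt
Bhmt2 to Dmgdh: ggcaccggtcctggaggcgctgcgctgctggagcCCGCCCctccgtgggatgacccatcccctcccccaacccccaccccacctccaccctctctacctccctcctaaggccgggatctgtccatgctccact
The Bhmt stretch held 3 matches to AGGTCA, where 14% of 32851 RefSeq promoter entries held at least 1 in the same 250 bases and 0.131% held at least 3. It also held 1 CCAAT (33.8% of entries), and it held 0 of GGGCGG (32.7%) and 0 of TATAAA (12.4%). The stretch between Bhmt2 and Dmgdh held 1 GGGCGG, where 27.5% of entries held one in windows of 133 bases, and 0 of AGGTCA (7.60%), CCAAT (22.7%) and TATAAA (6.93%). Motifs were searched on both strands, and a match is a description of letters only.

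The tissues were checked against their defining markers. Slc34a1, the phosphate transporter of the proximal tubule, averaged 13.18 in kidney and 5.91 in liver, and Cps1, the urea cycle enzyme of hepatocytes, averaged 6.07 in kidney and 13.46 in liver. The mean of 16 hepatocyte markers ranged from 6.4 to 10.30 over the kidney arrays (median 7.55) and from 12.59 to 13.11 over the liver arrays. In 9 kidney arrays it lay above 9, in 3 of the 12 PWK kidneys (all 3 from females), 2 PWKxWSB kidneys, and 1 kidney each of CASTxPWK, PWKxCAST, CASTxWSB and WSBxPWK. The mean of 15 proximal tubule markers ranged from 12.28 to 12.58 over the kidney arrays. The mean of 11 distal nephron and collecting duct markers differed between the strains, at 10.43 ± 0.10 in CAST, 11.12 ± 0.05 in PWK and 10.76 ± 0.06 in WSB kidneys (SD). In F1 kidneys it averaged 10.93 in CASTxPWK, 10.97 in PWKxCAST, 10.62 in CASTxWSB, 10.66 in WSBxCAST, 11.11 in PWKxWSB and 11.05 in WSBxPWK. The hepatocyte marker mean was 12.67 ± 0.05 in PWK livers (SD, n = 9), while the means of the other 8 crosses lay between 12.87 and 13.05. In liver, 1 WSB array had a proximal tubule marker mean of 9.38 (WSB median 6.63), and 1 array had a high signal of the pancreatic marker Cpa1 (12.68). The mean of 8 exocrine pancreas markers reached 11.31 in 1 CAST liver (CAST median 4.84) and 8.30 in 1 WSBxCAST liver (WSBxCAST median 4.97). The part of these markers in the strain and F1 differences below was not tested, apart from the kidney values given with a marker mean as a covariate or without arrays. In RNA from whole tissue, fewer cells of a type and less RNA per cell cannot be told apart. Strain variants within the probe sequences were not examined, and a signal that differs between strains need not reflect transcript amount.

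Kidney Bhmt, the enzyme that passes a methyl group from betaine to homocysteine, differed strongly between the crosses, and the F1 kidneys lay far below the WSB kidneys in both strain pairs that include WSB. In PWKxWSB kidneys the lowest, median and highest arrays had 7.17, 7.89 and 8.64, and in WSBxPWK kidneys 7.17, 7.34 and 8.47. In PWK kidneys they were 6.47, 7.11 and 10.13, against 9.79, 10.28 and 10.79 in WSB kidneys. All 22 F1 kidneys of PWK and WSB were thus below every WSB kidney, and all lay within the range of the PWK kidneys, which rests on the 3 PWK kidneys high in hepatocyte markers. Without the 9 arrays high in these markers, an alternative chosen after the data were seen, PWK kidneys ranged from 6.47 to 7.72 (n = 9), and 8 of the 19 F1 kidneys left were above every PWK kidney. In CASTxWSB kidneys the lowest, median and highest arrays had 8.70, 9.09 and 9.65, and in WSBxCAST kidneys 8.09, 9.23 and 9.90. CAST kidneys had 7.73, 8.91 and 9.19. Of the 22 F1 kidneys of CAST and WSB, 21 were below every WSB kidney and 11 were above every CAST kidney. In CASTxPWK kidneys the values were 7.63, 8.40 and 9.44, and in PWKxCAST kidneys 7.16, 7.83 and 8.95. Of these 23 F1 kidneys, 5 were below every CAST kidney, 1 was above every CAST kidney, and all lay within the PWK range. Without the 9 arrays, 16 of the 21 left were above every PWK kidney.

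Set against the mean of both parents (the mid-parent value), F1 kidney Bhmt was lower in PWK and WSB, with 7.72 in the F1 kidneys and a mid-parent value of 8.97 (difference -1.25 ± 0.13, SE). In CAST and WSB the difference was -0.55 ± 0.13 (SE), and in CAST and PWK it was 0.05 ± 0.13 (SE). Minus WSB, the F1 kidneys of PWK and WSB stood at -2.61, a 6.11-fold lower signal, and minus PWK at 0.12. Those of CAST and WSB stood at -1.34 minus WSB, a 2.52-fold lower signal, and at 0.24 minus CAST. Those of CAST and PWK lay between their parents, at -0.53 minus CAST and 0.63 minus PWK. These F1 differences are descriptions and were not tested, because the low F1 level of kidney Bhmt is the reason the gene is described here.

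These differences depended on the arrays, scale and probe set used. Without the 9 kidney arrays high in hepatocyte markers, the F1 minus mid-parent differences were -1.06 in PWK and WSB, -0.56 in CAST and WSB and 0.20 in CAST and PWK, and F1 minus PWK was 0.55 in PWK and WSB and 1.03 in CAST and PWK. With the mid-parent value averaged on a linear scale of signal, where it lies nearer the higher parent, the log2 F1 minus mid-parent differences were -1.81, -0.75 and -0.06. A second probe set annotated to Bhmt alone had a low mean kidney signal of 4.08. By itself it gave differences of -0.26 in PWK and WSB, -0.21 in CAST and WSB and -0.04 in CAST and PWK. With the mean of both probe sets the differences were -0.76, -0.38 and 0.01. A probe set annotated to both Bhmt and Bhmt2 correlated with the one used at r = 0.99 over the 102 kidney arrays and gave -1.23, -0.52 and -0.01.

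In order of its kidney means, Bhmt stood at 10.33 ± 0.30 in WSB (SD, n = 12), 9.18 ± 0.31 in CASTxWSB (n = 11), 8.89 ± 0.66 in WSBxCAST (n = 11), 8.76 ± 0.41 in CAST (n = 11) and 8.47 ± 0.58 in CASTxPWK (n = 12). It stood at 7.96 ± 0.48 in PWKxCAST (SD, n = 11), 7.85 ± 0.39 in PWKxWSB (n = 12), 7.60 ± 1.13 in PWK (n = 12) and 7.60 ± 0.51 in WSBxPWK (n = 10). Only the step between WSB and CASTxWSB exceeded the larger SD of the neighbours in this order. The cross means spanned 2.74, which ranked 63 among the 11292 genes tested in kidney, whose median span was 0.38. These are the cross means in which the low F1 level was seen. The span and its rank are therefore descriptions and not independent of the choice of the gene. Differences are called below where limma's adjusted p (Benjamini-Hochberg, over all genes tested in a tissue) was under 0.05. Among the inbred strains, CAST exceeded PWK by 1.16 (limma, adjusted p = 5.51e-08), and CAST minus WSB was -1.58 (limma, adjusted p = 2.23e-12). PWK minus WSB was -2.73 (limma, adjusted p = 3.38e-25), a 6.65-fold lower signal in PWK. The inbred kidneys are also the parents against which the low F1 level was seen. These tests of kidney Bhmt are therefore not independent of its choice. Without the 9 arrays high in hepatocyte markers PWK averaged 7.03, and its difference from WSB was -3.22. The second probe set of Bhmt alone, of low kidney signal, gave 0.96 for CAST minus PWK and -0.67 for PWK minus WSB. It gave 0.29 for CAST minus WSB, the reverse direction. The probe set shared with Bhmt2 gave 1.03, -2.75 and -1.72 for these contrasts.

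In liver the cross means of the same probe set spanned 0.38 on the log2 scale. PWKxWSB livers averaged 12.95 ± 0.09 (SD) and WSBxPWK livers 12.96 ± 0.07, against 13.01 ± 0.08 in PWK and 13.12 ± 0.07 in WSB. This span ranked 6329 among 11292 tested genes, whose median span was 0.42. The mean over all livers was 13.13, where the highest signal in the table was 14.55, and whether a ceiling of the array signal narrows differences at this level was not tested. The F1 livers of PWK and WSB lay 0.10 below the mid-parent value (limma, adjusted p = 2.27e-05), a call that remained (adjusted p = 0.0156, limma) when animals with neighbouring numbers within a cross were treated as random blocks, referred to below as the runs. What animals with neighbouring numbers share is not stated in the labels. Of these 24 livers, 12 were below every WSB liver and 7 below every PWK liver, so the groups overlapped. In CAST and PWK the F1 livers differed from the mid-parent value by 0.04 (adjusted p = 0.134, limma) and in CAST and WSB by -0.04 (adjusted p = 0.0801, limma). CAST livers, at 13.33 ± 0.05 (SD), exceeded PWK livers by 0.33 (limma, adjusted p = 1.43e-17) and WSB livers by 0.22 (limma, adjusted p = 1.48e-11), and PWK livers were 0.11 below WSB livers (limma, adjusted p = 0.000359). With the mean of both Bhmt probe sets the CAST and WSB difference was -0.12 (adjusted p = 0.429, limma).

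**Figure D1:**
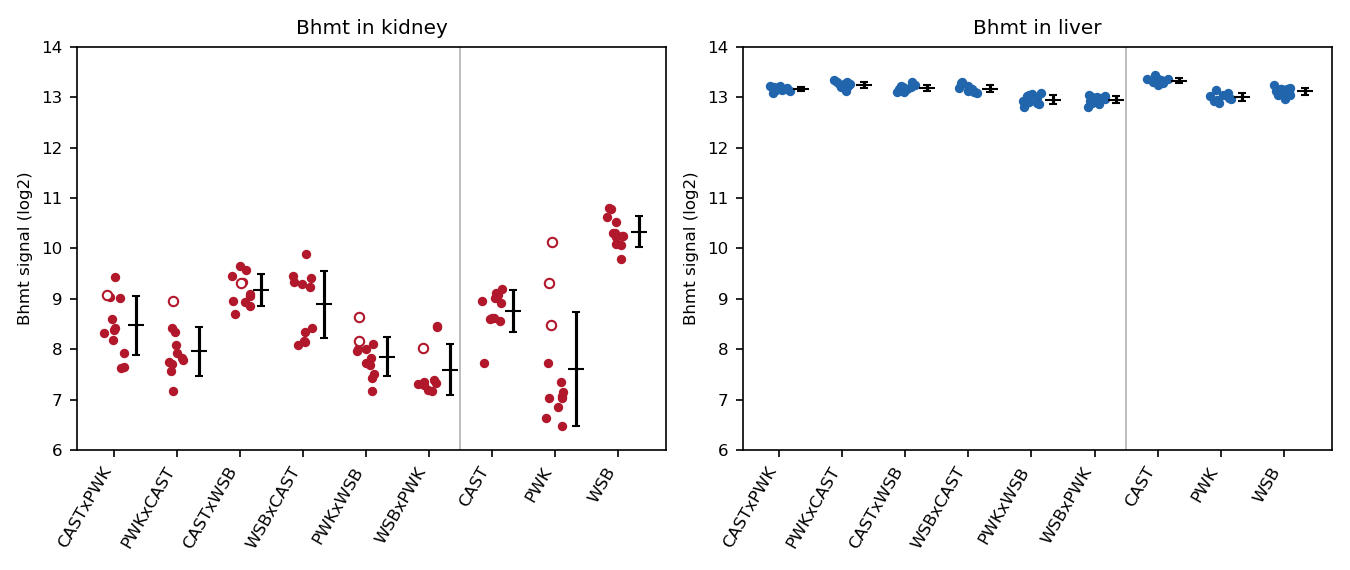
Bhmt signal (log2, vertical axis) in every kidney (left) and liver (right), by cross, with F1 crosses left of the grey line and inbred strains right of it. Bars are means ± SD, and open circles are the 9 kidneys whose hepatocyte marker mean exceeds 9. WSB kidneys sit between 9.79 and 10.79, and all 22 F1 kidneys of PWK and WSB lie below them.

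The inbred strains differed in most of the 9 genes in kidney. CAST and PWK kidneys differed in 6 of 9 genes (60.1% of all tested genes did), CAST and WSB kidneys in 8 (59.6%), and PWK and WSB kidneys in all 9 (60.7%), of which the Mat1a call was lost without the 9 arrays and with the runs. Kidney Mat1a passed the filter on low signals only with these 9 arrays (mean 6.38, or 6.13 without them). Its place in the kidney counts is therefore not independent of these arrays. In liver the counts were 6 (50.1% of all tested genes), 7 (57%) and 6 (55.3%) of 9. Strain differences were thus called for at least 50.1% of all tested genes in every contrast, and calls of members are to be read against that. With the runs as a block 21 of these 23 kidney calls and 15 of the 19 liver calls remained. Bhmt, chosen for its low F1 kidney level, is in each of the kidney counts.

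Bhmt2, whose product methylates homocysteine from S-methylmethionine, was highest in CAST kidneys and lowest in PWK kidneys. The lowest, median and highest CAST kidneys had 11.25, 11.53 and 11.62, against 10.62, 10.80 and 11.03 in PWK, with no overlap. The difference was 0.70 (limma, adjusted p = 1.9e-25), and CAST exceeded WSB by 0.23 (limma, adjusted p = 9.39e-06). PWK kidneys were 0.47 below WSB kidneys, which had 11.15, 11.31 and 11.37 (limma, adjusted p = 1.56e-16). Liver followed the same order of strains, with CAST above PWK by 0.28 (limma, adjusted p = 9.45e-12) and above WSB by 0.12 (limma, adjusted p = 0.000603).

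Dmgdh, next to Bhmt2 on chromosome 13, had kidney levels of 11.57, 11.74 and 11.87 in CAST (lowest, median, highest), 11.37, 11.49 and 11.58 in PWK, and 11.43, 11.64 and 11.69 in WSB. CAST kidneys exceeded PWK kidneys by 0.27 and WSB kidneys by 0.15, and PWK kidneys were 0.12 below WSB kidneys (limma, adjusted p = 1.07e-16, 2.45e-07 and 1.15e-05). In liver, PWK was lowest, 0.31 below WSB (limma, adjusted p = 5.23e-15), while CAST and WSB differed by -0.02 (limma, adjusted p = 0.627).

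Chdh, which starts betaine synthesis from choline, varied least in kidney. Its cross means spanned 0.25, and the lowest and highest single kidneys had 10.44 and 11.03. PWK kidneys exceeded WSB kidneys by 0.25 (limma, adjusted p = 9.87e-07), the reverse of the direction of Bhmt, Bhmt2 and Dmgdh. PWK livers exceeded WSB livers by 0.22 (limma, adjusted p = 0.0008), and the liver call of CAST minus WSB was lost with the runs (adjusted p = 0.0694, limma). The smaller kidney calls were lost under alternatives, CAST minus PWK (-0.13, adjusted p = 0.0104; 0.0627 without the 9 arrays) and CAST minus WSB (0.12, adjusted p = 0.0209; 0.0895 with the runs), all by limma.

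Pemt, which makes phosphatidylcholine from phosphatidylethanolamine with methyl groups from S-adenosylmethionine, ranked PWK above WSB above CAST in both tissues. Kidney values were 6.67, 6.77 and 7.12 in CAST (lowest, median, highest), 7.37, 7.88 and 9.39 in PWK and 6.71, 7.14 and 7.46 in WSB. CAST and PWK did not overlap and differed by -1.25 (limma, adjusted p = 1.06e-18), and PWK exceeded WSB by 0.90 (limma, adjusted p = 1.21e-12). Without the 9 arrays high in hepatocyte markers, PWK exceeded WSB by 0.66. In liver CAST was 0.62 below PWK (limma, adjusted p = 3.42e-29) and PWK was 0.38 above WSB (limma, adjusted p = 2.76e-17). The highest CAST liver had 12.37 and the lowest PWK liver 12.66, so these groups did not overlap either. Of the 9 genes, Pemt had the widest span of cross means in liver, 0.62.

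Gnmt methylates glycine and so disposes of excess S-adenosylmethionine. CAST kidneys had 9.24, 9.63 and 10.19 as lowest, median and highest, against 10.20, 10.49 and 10.65 in WSB kidneys, the highest of the inbred strains. CAST was 0.82 below WSB without overlap (limma, adjusted p = 6.97e-09). PWK kidneys spread from 8.59 to 10.96 and were 0.97 below WSB on average (limma, adjusted p = 1.1e-11), or 1.27 below without the 9 arrays. In liver the same contrasts were -0.17 (limma, adjusted p = 1.91e-07) and -0.10 (limma, adjusted p = 0.00296), and the second was lost with the runs (adjusted p = 0.057, limma).

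Ahcy and Cbs, which split S-adenosylhomocysteine and draw homocysteine towards cysteine, were also highest in WSB kidneys. Ahcy averaged 12.27 ± 0.11 in CAST, 12.13 ± 0.06 in PWK and 12.50 ± 0.09 in WSB kidneys (SD, n = 11 to 12), and all 3 inbred contrasts were called, the widest between PWK and WSB (-0.37, limma, adjusted p = 6.06e-17). Cbs kidneys ranged from 10.87 to 11.27 in CAST, from 10.81 to 11.22 in PWK and from 11.26 to 11.57 in WSB, so that PWK and WSB kidneys did not overlap. CAST was 0.37 below WSB (limma, adjusted p = 6.61e-10) and PWK 0.45 below WSB (limma, adjusted p = 8.2e-14). In liver, CAST minus PWK was -0.11 for Ahcy and CAST minus WSB was -0.12, both called, and no inbred contrast of liver Cbs was called (-0.07 to 0.03).

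Mat1a, the liver form of methionine adenosyltransferase, averaged 6.38 in kidney, just above the 40th percentile of genes needed for testing, and 13.25 in liver. Without the 9 arrays high in hepatocyte markers its kidney mean was 6.13, which would not have passed that filter. PWK kidneys had 5.27, 5.91 and 10.68 as lowest, median and highest, against 4.66, 5.81 and 7.77 in WSB. The means were 6.96 in PWK and 5.96 in WSB (limma, adjusted p = 0.0146), and the difference was 0.01 (adjusted p = 0.989) without the 9 arrays high in hepatocyte markers and was not called with the runs as a block (adjusted p = 0.104). In liver, CAST was 0.09 below PWK (limma, adjusted p = 0.009) and 0.06 below WSB (limma, adjusted p = 0.0407), and neither call remained with the runs as a block (adjusted p = 0.0504 and 0.184).

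**Figure D2:**
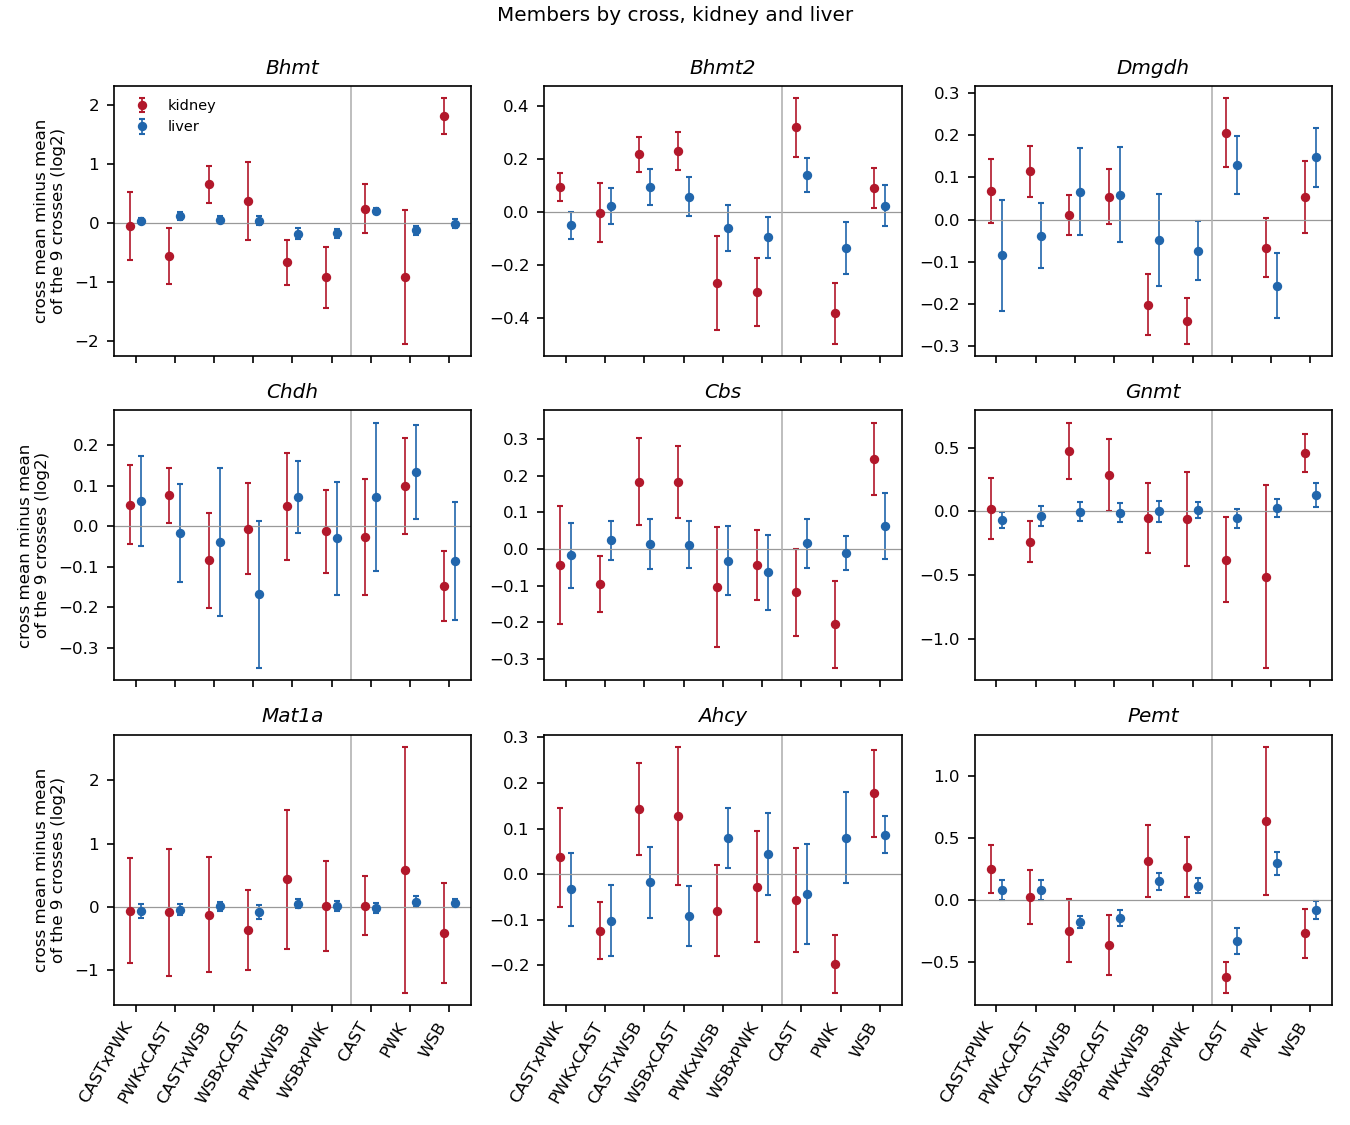
Each panel shows 1 gene as its cross mean minus the mean of the 9 crosses (log2, vertical axis) for the F1 crosses and then the inbred strains, with SD bars, in kidney (red) and liver (blue). Bhmt has the widest kidney span (2.74) and a liver span of 0.38.

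For the other 8 genes the F1 kidneys were tested against the mid-parent value. Of 8 genes, 3 differed in CAST and PWK (33.7% of all tested genes did), 4 in CAST and WSB (42.7%) and 3 in PWK and WSB (37.4%). With all arrays and no covariate the counts were thus close to the background. Without the 9 arrays high in hepatocyte markers, an alternative chosen after the data were seen, 13 of 24 comparisons were called (10 before). With the hepatocyte marker mean as a covariate 13 were called as well. The shares of all tested genes under these settings are not given here. In liver, 3 of 9 genes differed in each pair, where 18.7%, 25.3% and 17% of all tested genes did. With the runs as a block, 3 of the 10 kidney calls remained (Dmgdh in CAST and WSB and in PWK and WSB, and Gnmt in CAST and WSB) and 3 of the 9 liver calls (Mat1a and Pemt in CAST and PWK, and Bhmt in PWK and WSB).

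Dmgdh was the gene of this group whose F1 kidney level was most clearly low. The F1 kidneys of PWK and WSB had 11.24, 11.31 and 11.48 as lowest, median and highest, and 16 of 22 were below every PWK kidney and 20 of 22 below every WSB kidney. They lay 0.21 below the mid-parent value (limma, adjusted p = 4.3e-18; 1.32e-08 with the runs as a block). They were 0.15 below PWK and 0.27 below WSB (limma, adjusted p = 2.77e-09 and 3.74e-20), outside both parents, which 5.1% of all tested genes were in that direction. The F1 kidneys of CAST and WSB had 11.46, 11.59 and 11.74, which was 0.10 below the mid-parent value (limma, adjusted p = 6.67e-06; 0.00443 with the runs) and 0.17 below CAST (limma, adjusted p = 1.98e-10). Those of CAST and PWK differed from the mid-parent value by 0.02 (limma, adjusted p = 0.316). In liver the F1 of CAST and WSB fell below both parents, by 0.06 against CAST and 0.08 against WSB, as did 3.05% of all tested genes, and these calls were lost with the runs as a block (adjusted p = 0.197 and 0.104, limma).

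Bhmt2, which lies between Bhmt and Dmgdh, had F1 kidney levels of 10.66, 10.93 and 11.14 in PWK and WSB. All 22 were below every WSB kidney, and 8 were above every PWK kidney. The difference from the mid-parent value was -0.14 (limma, adjusted p = 0.00039; 0.0718 with the runs as a block). In the other pairs it was 0.08 (CAST and PWK, adjusted p = 0.0571, limma) and 0.02 (CAST and WSB, adjusted p = 0.705, limma). In every pair the F1 kidney mean lay between both parents.

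Gnmt went the other way in the pairs that include CAST. The F1 kidneys of CAST and WSB had 9.91, 10.51 and 10.85, 0.32 above the mid-parent value (limma, adjusted p = 0.00176; 0.0383 with the runs), and 16 of 22 were above every CAST kidney. Those of CAST and PWK had 9.43, 9.89 and 10.50, 0.33 above the mid-parent value (limma, adjusted p = 0.0016; 0.0546 with the runs). They exceeded CAST by 0.26 and PWK by 0.41 (limma, adjusted p = 0.0337 and 0.000707), above both parents like 2.83% of all tested genes, and the difference from CAST was lost with the runs (adjusted p = 0.095). In PWK and WSB the F1 kidneys differed from the mid-parent value by -0.03 (limma, adjusted p = 0.812). In liver Gnmt was 0.07 below the mid-parent value in PWK and WSB (limma, adjusted p = 0.0153; 0.254 with the runs).

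The remaining kidney calls were small. Cbs was 0.09 above the mid-parent value in CAST and PWK, 0.11 above it in CAST and WSB and 0.09 below it in PWK and WSB, and Ahcy was 0.08 and 0.06 above it in the pairs that include CAST. None of these 5 remained with the runs as a block (adjusted p from 0.118 to 0.323, limma). With all arrays and no covariate, Chdh, Mat1a and Pemt were not called in any pair in kidney. Their differences were 0.03 to 0.04 for Chdh, -0.37 to 0.14 for Mat1a and 0.11 to 0.14 for Pemt.

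In liver, Mat1a in CAST and PWK was 0.09 below the mid-parent value (limma, adjusted p = 0.00113) and Pemt was 0.10 above it (limma, adjusted p = 0.00228), with adjusted p of 0.0382 and 0.0445 with the runs. All 21 F1 livers of CAST and PWK had more Pemt signal than every CAST liver and 17 had less than every PWK liver. Liver Ahcy was 0.08 below the mid-parent value in CAST and PWK and in CAST and WSB (adjusted p = 0.0625 and 0.0759 with the runs). The liver calls of Mat1a and Dmgdh in CAST and WSB (-0.05 and -0.07) and of Cbs in PWK and WSB (-0.07) were also lost with the runs (adjusted p = 0.231, 0.135 and 0.364, limma).

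**Figure D3:**
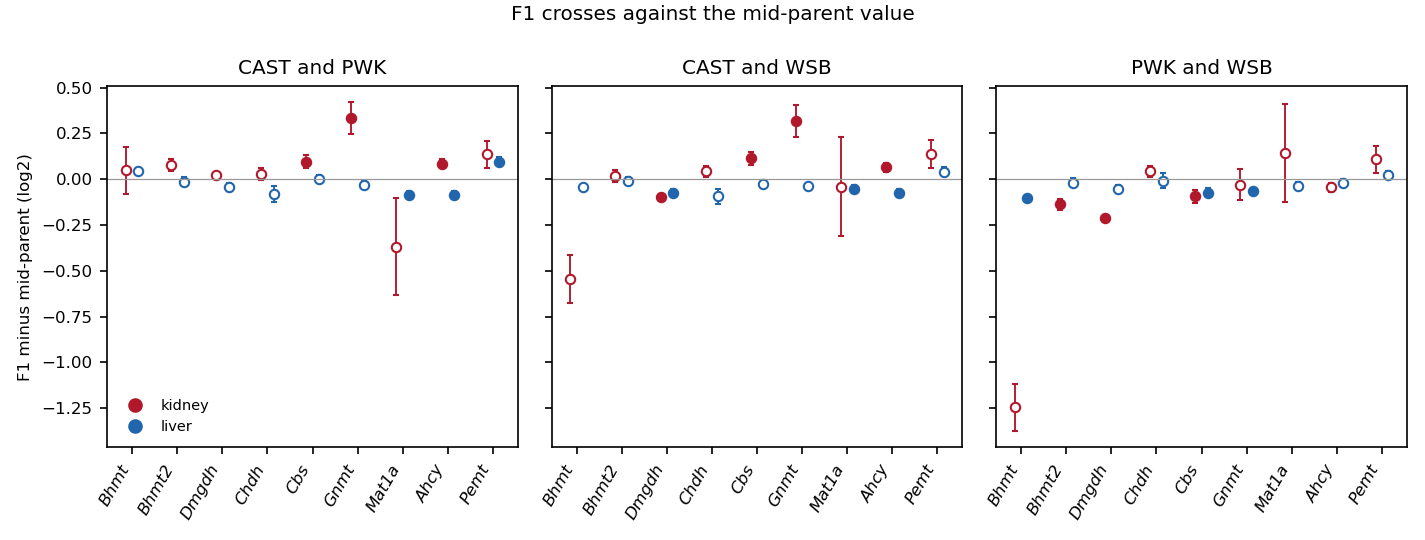
F1 minus mid-parent difference (log2, ± SE) of each gene in kidney (red) and liver (blue), with 1 panel per strain pair. Filled points were called by limma, and open points were not called or, for kidney Bhmt, not tested. Kidney Bhmt lies at -1.25 in PWK and WSB and -0.55 in CAST and WSB, while the other 8 genes lie between -0.37 and 0.33.

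F1 kidneys were also set against each parent. Against CAST, 5 of 8 genes differed in the F1 of CAST and PWK (52.1% of all tested genes) and 6 in the F1 of CAST and WSB (57.2%). Against PWK, 6 differed in the F1 of CAST and PWK (44.7%) and 6 in the F1 of PWK and WSB (51.4%). Against WSB, 2 differed in the F1 of CAST and WSB (42.4%) and 7 in the F1 of PWK and WSB (49.2%). Pemt showed the widest of these steps, 0.76 above CAST and 0.49 below PWK in their F1 kidneys (limma, adjusted p = 4.26e-11 and 4.25e-06), and all 23 of those kidneys were above every CAST kidney. Gnmt was 0.73 above CAST in the F1 kidneys of CAST and WSB (limma, adjusted p = 1.14e-08) and 0.09 below WSB (limma, adjusted p = 0.503). In liver 4 and 7 of 9 genes differed from CAST and from PWK in the F1 of CAST and PWK (38.9% and 33.7% of all tested genes), 5 and 6 from CAST and from WSB in the F1 of CAST and WSB (39.4% and 46.5%), and 2 and 6 from PWK and from WSB in the F1 of PWK and WSB (33.6% and 46.4%). With the runs as a block 22 of these 32 kidney calls and 22 of the 30 liver calls remained, and both kidney calls of the F1 of CAST and WSB minus WSB were lost, for Bhmt2 and Chdh (adjusted p = 0.0768 and 0.258, limma). These contrasts share F1 and inbred arrays with those above and with each other.

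Few differences between reciprocal crosses were called. In kidney 1 of 9 genes differed between CASTxPWK and PWKxCAST (3.03% of all tested genes), 0 between CASTxWSB and WSBxCAST (2.44%) and 0 between PWKxWSB and WSBxPWK (1%). The call was Ahcy, 0.16 higher in CASTxPWK (limma, adjusted p = 0.00347), with 12.36 ± 0.11 in CASTxPWK and 12.20 ± 0.06 in PWKxCAST kidneys (SD, n = 12 and 11), and it was lost with the runs as a block (adjusted p = 0.999). Kidney Bhmt was 0.49 higher in CASTxPWK than in PWKxCAST without passing the threshold (limma, adjusted p = 0.133). In liver 0 of 9 genes differed in any pair (9.32%, 5.62% and 1.22% of all tested genes). At an unadjusted p under 0.05, limma gave 5 of the 27 kidney comparisons and 6 of the 27 liver comparisons. The share of all tested genes at that unadjusted threshold was not counted, so these counts have no background to be read against.

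Females had more signal than males where a sex difference was called. In kidney 3 of 9 genes differed by sex (10.9% of all tested genes). Bhmt averaged 8.74 in female and 8.28 in male kidneys, a difference of 0.46 (limma, adjusted p = 5.56e-05), but females were higher in only 6 of 9 crosses, with differences from -0.42 in WSB to 1.48 in PWK. All 3 PWK kidneys high in hepatocyte markers were from females, and without the 9 arrays the difference over all crosses was 0.38 and still called. Gnmt was 0.26 higher in female kidneys (limma, adjusted p = 0.000743; higher in 8 of 9 crosses), and Ahcy 0.08 higher (limma, adjusted p = 0.000414; 7 of 9 crosses). WSB was a cross with lower female means for each of these 3 genes. In liver 5 of 9 genes differed by sex (13.8%). Dmgdh averaged 12.24 in female and 12.13 in male livers, 0.12 higher (limma, adjusted p = 4.23e-10) and higher in females in all 9 crosses, and Mat1a was 0.09 higher (limma, adjusted p = 4.15e-08; 8 of 9 crosses). Bhmt, Gnmt and Ahcy were 0.05, 0.04 and 0.05 higher in female livers, and these 3 calls were lost when each array was centred on its median (adjusted p = 0.256, 0.435 and 0.184, limma).

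All 9 genes differed between kidney and liver, as did 93.8% of the genes tested in either tissue. Kidney minus liver was -6.87 for Mat1a, -5.09 for Pemt, -4.62 for Bhmt and -3.15 for Gnmt. It was -1.29 for Cbs, -1.07 for Ahcy, -0.78 for Bhmt2 and -0.64 for Dmgdh. Chdh was the only one of the 9 with a higher signal in kidney, 10.78 against 10.08 in liver, a difference of 0.69 (limma, adjusted p = 3.94e-89, the highest of the 9). Whether the authors normalised the tissues together is not stated in the sources used here. The strain differences were also compared between the tissues, by an interaction in limma that was added after the data were seen. They differed for 4 of 9 genes in CAST minus PWK (37.6% of all tested genes), 4 in CAST minus WSB (37.3%) and 8 in PWK minus WSB (39.7%). Mat1a is among these 8, and its call was lost with the runs as a block. In kidney alone its PWK minus WSB difference was not called without the 9 arrays high in hepatocyte markers. For Bhmt the kidney difference minus the liver difference was 0.82 in CAST minus PWK, -1.80 in CAST minus WSB and -2.62 in PWK minus WSB (limma, adjusted p = 0.000258, 2.25e-16 and 8.64e-28), with the ceiling of the liver signal not tested here either. These tests of Bhmt use the parent kidneys against which its low F1 level was seen, so they are not independent of its choice. The F1 minus mid-parent differences of the other 8 genes differed between the tissues for 2 genes in CAST and PWK (20.7% of all tested genes), 4 in CAST and WSB (27.3%) and 2 in PWK and WSB (28.2%). Dmgdh in PWK and WSB was one of these, at -0.16 (limma, adjusted p = 1.43e-06).

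Hepatocyte markers moved with some of these genes among the kidneys of a cross. Residuals from the means of cross and sex were correlated over the 102 kidneys, a test added after the data were seen, with permutations of animals within cross and sex and adjustment over the 9 genes. Kidney Mat1a followed the mean of the 16 hepatocyte markers closely (r = 0.96, rho = 0.93, permutation adjusted p = 3e-05), and r was 0.95 without the 2 farthest kidneys. Bhmt did so less closely (r = 0.68, rho = 0.54, permutation adjusted p = 3e-05; r = 0.60 without the 2 farthest), as did Pemt (r = 0.63, rho = 0.47, permutation adjusted p = 3e-05) and Gnmt (r = 0.45, rho = 0.28, permutation adjusted p = 0.00355). An unadjusted p of 1e-05 was the smallest that the 100000 permutations could give. For Bhmt2, Dmgdh, Chdh, Cbs and Ahcy r lay between -0.06 and 0.07. In the 93 kidneys without the 9 high ones, r was 0.90 for Mat1a (permutation adjusted p = 9e-05) and 0.38 for Bhmt (permutation adjusted p = 0.00072), and it was 0.21 for Pemt (0.188) and 0.13 for Gnmt (0.464). With the marker mean as a covariate, kidney Bhmt differed from the mid-parent value by -1.34 in the F1 of PWK and WSB and by -0.61 in the F1 of CAST and WSB.

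**Figure D4:**
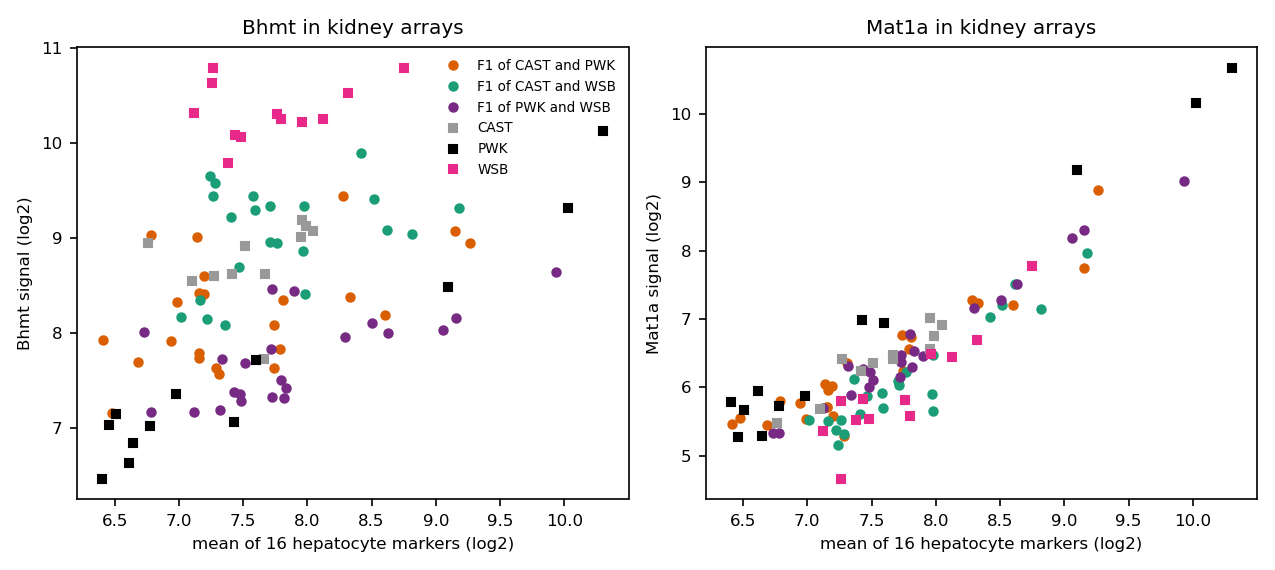
Kidney signal of Bhmt and Mat1a (log2, vertical axes) against the mean of 16 hepatocyte markers (log2, horizontal axis) in 102 kidneys, with circles for F1 crosses and squares for inbred strains. The 9 kidneys beyond 9 on the horizontal axis include the 3 PWK kidneys with the most Mat1a signal (9.17 to 10.68), while WSB kidneys are high in Bhmt with marker means of 7.12 to 8.75.

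Kidney and liver of the same animal were compared within cross and sex in the 95 animals with both. For Bhmt r was 0.11 (rho = 0.13, permutation adjusted p = 0.709) and 0.03 without the 2 animals farthest from the median. Over the 9 genes r ranged from -0.21 for Ahcy to 0.23 for Cbs (permutation adjusted p = 0.347 each), and 0 of 9 passed at an adjusted or an unadjusted p under 0.05, with the smallest unadjusted p at 0.0645 (permutation test).

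Neighbouring genes on chromosome 13 were measured for comparison, the nearest pair on either side of the stretch. Of all tested genes, 18.8% were called below the mid-parent value in kidney in PWK and WSB. In CAST and WSB kidneys 20% were, and in CAST and PWK 16.6% in kidney and 11.3% in liver. Whether the genes of this stretch differ together was not tested. In kidney, Arsb, a lysosomal sulfatase next to Dmgdh, was 0.30 below the mid-parent value in PWK and WSB and 0.25 below it in CAST and WSB (limma, adjusted p = 4.26e-15 and 1.1e-11; 4.73e-08 and 3.71e-06 with the runs as a block). PWK kidneys had 0.48 less Arsb signal than WSB kidneys (limma, adjusted p = 3.05e-20). Jmy, an actin regulator on the Bhmt side, was 0.26 below the mid-parent value in PWK and WSB, 0.22 below it in CAST and WSB and 0.19 below it in CAST and PWK (limma, adjusted p = 7.48e-06, 9.04e-05 and 0.00105), and the last was lost with the runs (adjusted p = 0.0668). Lhfpl2, beyond Arsb, was 0.21 below it in PWK and WSB only (limma, adjusted p = 0.000268; -0.04 and 0.02 in the other pairs), and Homer1, a scaffold protein of synapses, was called in no pair (-0.07 to -0.01). In liver, Arsb differed from the mid-parent value by 0.01 in PWK and WSB (limma, adjusted p = 0.927). In CAST and PWK livers Arsb was 0.14 and Jmy 0.18 below it (limma, adjusted p = 0.0154 and 0.0306), and both calls were lost with the runs (adjusted p = 0.123 and 0.125).

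**Figure D5:**
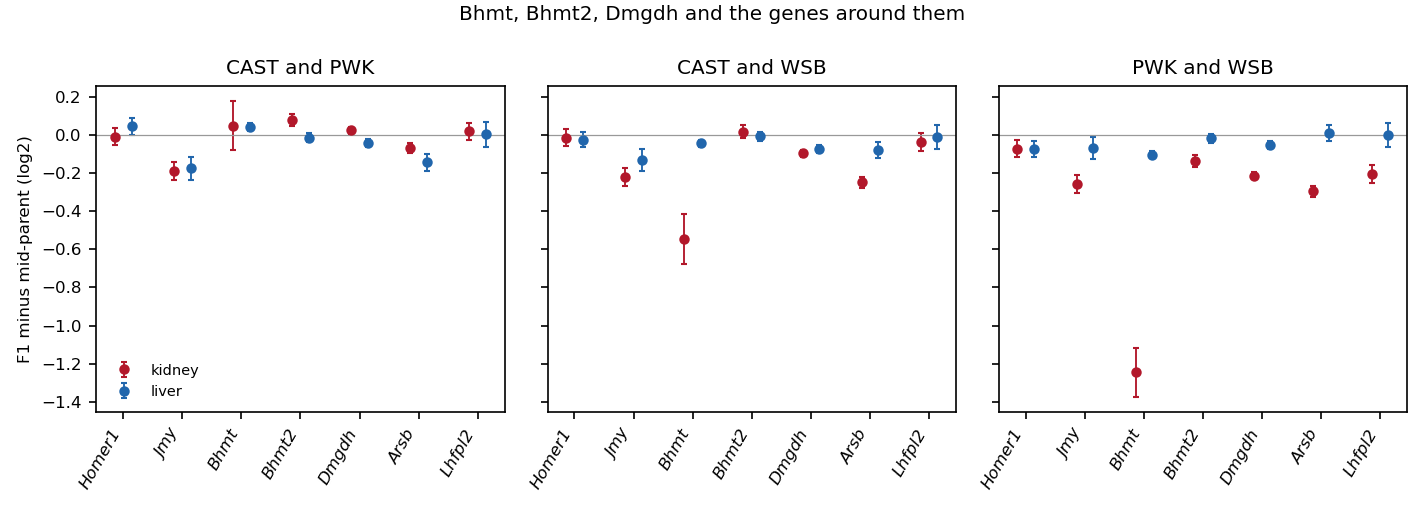
Kidney and liver F1 minus mid-parent differences (log2, ± SE) of Homer1, Jmy, Bhmt, Bhmt2, Dmgdh, Arsb and Lhfpl2, in their order on chromosome 13, by strain pair. In kidney, Bhmt lies lowest in PWK and WSB (-1.25, not tested), and Arsb (-0.30), Jmy (-0.26), Dmgdh (-0.21), Lhfpl2 (-0.21) and Bhmt2 (-0.14) also lie below 0. Homer1 (-0.07) was not called, and 18.8% of all tested genes were called lower in this pair.

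The lists of pathway neighbours were chosen with earlier results known, and are given by counts only. In the F1 kidneys of PWK and WSB, of 20 tested folate and methionine cycle genes 4 were higher and 10 lower than the mid-parent value, against 18.6% and 18.8% of all tested genes, with a median of -0.10 beside 0.00. With the runs as a block 1 was higher and 5 lower. The shares of all tested genes in this paragraph are without the runs. With the runs fewer of all tested genes were called, as counted in the last section. The lowest p-values belonged to Gldc, the glycine decarboxylase (-0.71, limma, adjusted p = 3.28e-17), Ahcyl2, a relative of Ahcy (-0.15, adjusted p = 4.27e-06), and Mthfd1, a folate-interconverting enzyme (-0.11, adjusted p = 1.81e-05). Gldc was also lower in F1 kidneys of CAST and WSB (-0.43) and of CAST and PWK (-0.38), where 5 and 5 of 20 folate genes were higher (22.6% and 17.1% of all tested genes) and 6 and 3 lower (20% and 16.6%). With the runs these counts were 1 and 2 higher and 5 and 1 lower. Of 15 transsulfuration and sulfur genes 4 were higher and 5 lower in PWK and WSB, or 3 and 3 with the runs. Tst and Mpst, sulfurtransferases, were 0.38 and 0.25 higher, and Pcca, a propionyl-CoA carboxylase subunit, was 0.12 lower.

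Of 10 betaine transport and osmolyte genes in the F1 kidneys of PWK and WSB, 2 were higher and 2 lower, or 2 and 1 with the runs. Over all tested genes, 18.6% were higher and 18.8% lower in this pair without the runs, and fewer were called with them. The counts of each list in this paragraph are to be read against these shares. Slc6a12, the betaine and GABA transporter of the renal medulla, was 0.34 above the mid-parent value (limma, adjusted p = 0.000119; 0.0409 with the runs), and it was also higher in F1 kidneys of CAST and WSB (0.38) and of CAST and PWK (0.52). Slc6a20b, an imino acid transporter, was 0.22 higher, and Slc6a6, the taurine transporter, 0.15 lower. Of 14 choline and phosphatidylcholine genes 2 were higher and 3 lower, and none of these 5 remained with the runs, among them Pcyt1a, which makes CDP-choline (-0.14), and Pcyt2 and Etnk1 of the ethanolamine branch (-0.11 and -0.12). Of 10 other users of S-adenosylmethionine 1 was higher, Mettl7b, a thiol methyltransferase (0.12), which was lost with the runs (adjusted p = 0.206, limma).

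The same lists were counted between the inbred parents of that pair. In PWK against WSB kidneys 5 of 20 folate genes were higher and 8 lower (37.5% and 23.2% of all tested genes), with Mtrr, the reductase that keeps methionine synthase active, 1.31 higher in PWK and Gldc 1.18 lower (limma, adjusted p = 3.74e-46 and 4.18e-23). Slc6a12 was 1.04 lower and Slc6a20b 1.08 lower in PWK (limma, adjusted p = 1.05e-15 and 2.72e-32). Of 15 sulfur genes 7 were higher and 5 lower, with Sqor, the sulfide oxidase of mitochondria, 0.72 higher and Tst 0.87 lower in PWK. Of 14 choline genes 5 were higher and 3 lower, with Pld1, a phospholipase, 0.88 higher and Slc22a2, an organic cation transporter, 0.57 lower in PWK. In the F1 livers of PWK and WSB, 1 of 20 folate genes was higher and 4 lower than the mid-parent value (8.73% and 8.31% of all tested genes), and 0 of 20 remained with the runs as a block.

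The genes whose 9 kidney cross means ran most closely with those of Bhmt were Mafk (r = 0.99), Xpnpep1 (0.97), Net1 (0.95), Acot6 (0.94) and Prodh2 (0.94). In liver they were Herc2 (0.98), Camk2n1, Nat2, Rnf139 and Tmem220 (0.97 each). With 9 points per gene that share arrays and crosses and 11292 genes compared, these are descriptions. Among the other members, Ahcy (0.84), Cbs (0.83), Gnmt (0.74), Bhmt2 (0.69) and Dmgdh (0.51) ran with kidney Bhmt, and Chdh (-0.86), Mat1a (-0.75) and Pemt (-0.70) ran against it.

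In brain and lung, Gnmt averaged 5.73 and 8.71 and Mat1a 5.39 and 8.58, where kidney Mat1a averaged 6.38. Bhmt averaged 5.74 ± 0.52 (SD, n = 85) in brain and 6.98 ± 1.09 (SD, n = 98) in lung, where the lowest and highest arrays had 5.03 and 11.31. Cbs averaged 9.47 ± 0.18 in brain and 7.93 ± 0.45 in lung, and Ahcy 9.62 ± 0.17 and 9.95 ± 0.28 (SD). Pemt kept its kidney extremes in brain, with the lowest cross mean in CAST (6.25) and the highest in PWK (7.07).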

How the data were processed

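As deposited by the authors, the table gives 1 log2 signal for each transcript cluster (probe set) and array, and per the submitters' processing notes the signals were made with RMA and Affymetrix Expression Console, without versions given. The table held 35556 clusters in 386 arrays with 0 missing values, array medians from 5.89 to 6.36, and no arrays with the same values. The platform annotation gave 21218 clusters 1 symbol, 1881 several and 12457 none, and 18820 genes resulted. For Bhmt, 2 such clusters were available, and for Ahcy 3.

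Cross, sex, tissue and animal came from the labels. In each tissue, genes with a mean at or above the 40th percentile (11292) were tested with limma 3.58.1 in R 4.3.3, on 18 cross-by-sex means with a trended eBayes, weighting the sexes equally. Kidney was set against liver in 36 such means (12236 genes). The number of arrays limits the precision. Permutations used scipy 1.17.1 and numpy 2.4.6 in Python 3.11.15, exchanging animals within cross and sex. The fit was also run on simulated data with independent arrays and additive F1 levels. These had no correlation within runs of animal numbers, so they cannot tell how such correlation affects the calls.

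Kidney and liver came from the same animals in 95 cases, which pairs them, and the correlation of both tissues of an animal was 0.07. Runs were stretches of animal numbers within a cross with gaps of at most 3 (26 per tissue, correlation 0.26 in kidney and 0.21 in liver). Kidney Bhmt in F1 animals set against their parents was described without a test. The members and lists were chosen with earlier results of these data known. Named genes were all members, up to 3 called genes with the smallest p per list (2 where none was called), the 2 nearest measured genes on either side of the Bhmt stretch, and the 5 genes most like Bhmt over cross means. Any other gene was named after its values were known. The alternatives were other filters, no trend, array weights, an additive model, the runs, the mean of a gene's clusters, centred arrays, marker means as covariates, a linear mid-parent, animal as a block, and arrays left out.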

Additional observations from a re-analysis of the deposited data

Results flagged for a closer look

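Among 27 combinations of a gene and a group of at most 10 arrays, 2 had an array far from the others, and chance gives about 1 in 20. In WSBxPWK kidneys, the highest Mat1a array had 8.18 and the other 9 arrays 5.32 to 6.47; it is one of the 9 kidneys high in hepatocyte markers. In CASTxPWK livers, the lowest Cbs array had 12.27 and the others 12.45 to 12.62.

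The F1 minus mid-parent difference differed between kidney and liver, by limma's interaction of tissue and contrast, in 8 of 24 comparisons. Of all tested genes, 20.7% did in CAST and PWK, 27.3% in CAST and WSB and 28.2% in PWK and WSB. As kidney minus liver, it was 0.37 for Gnmt and 0.17 for Ahcy in CAST and PWK. In CAST and WSB it was 0.14 for Chdh, 0.14 for Cbs, 0.36 for Gnmt and 0.14 for Ahcy. In PWK and WSB it was -0.12 for Bhmt2 and -0.16 for Dmgdh. With runs of animal numbers within a tissue as a block 4 remained, which were Ahcy in both pairs, Gnmt in CAST and WSB, and Dmgdh.

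The inbred strain difference differed between kidney and liver in 16 of 27 comparisons, by an interaction added after the data were seen. Of all tested genes, 37.6% did in CAST minus PWK, 37.3% in CAST minus WSB and 39.7% in PWK minus WSB. Bhmt, chosen for its low F1 kidney level, is among these calls in each contrast. For CAST minus PWK, kidney minus liver was 0.82 for Bhmt, 0.41 for Bhmt2, 0.26 for Ahcy and -0.63 for Pemt. For CAST minus WSB it was -1.80 for Bhmt, 0.17 for Dmgdh, -0.32 for Cbs and -0.65 for Gnmt. For PWK minus WSB it was -2.62 for Bhmt, -0.31 for Bhmt2, 0.19 for Dmgdh, -0.38 for Cbs, -0.87 for Gnmt, 0.97 for Mat1a, -0.36 for Ahcy and 0.52 for Pemt. The Mat1a value was lost with the runs as a block (limma, adjusted p = 0.163). Mat1a lay between 7.74 and 10.68 in the 9 kidneys high in hepatocyte markers, 3 of them from PWK, and without these 9 kidneys PWK minus WSB in kidney was 0.01 for Mat1a and 0.66 for Pemt.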

How the results depend on the processing

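Values from limma were followed only where called at first or, for kidney Bhmt in F1 animals, described without a test. Calls gained under an alternative are therefore not among them. Of 1663 single values under alternatives other than leaving out an array, 1566 kept their direction and side of the threshold (or, without a test, stayed within an SD). Of the rest, 87 were no longer called, 6 reversed and 4 moved by more than an SD without a test. Kidney F1 minus mid-parent calls numbered 13 (10 before) without the 9 arrays high in hepatocyte markers, and 13 with these markers as a covariate. With the runs of animal numbers as a block, called F1 minus mid-parent differences numbered 3 (10 before) in kidney and 3 (9 before) in liver, kidney reciprocal differences 0 (1 before), and tissue differences in F1 minus mid-parent 4 (8 before); the cause was not tested. Over all tested genes the same block left 970, 2057 and 1161 kidney mid-parent calls (3804, 4817 and 4220 before) and 797, 1251 and 513 in liver (2108, 2853 and 1924 before). Liver reciprocal calls (0 before) numbered 1 at the 60th percentile, 2 with array weights, 1 with centred arrays, 0 without PWKxWSB liver replicate 8, whose sex genes go against its label, and 0 to 1 when each array was left out. Liver sex calls numbered 2 with centred arrays (5 before). Kidney Bhmt F1 minus mid-parent in CAST and PWK was -0.060 with array weights and -0.064 with the mid-parent averaged on the linear scale. It was -0.017 to 0.14 when each array was left out. Kidney Bhmt in F1 of PWK and WSB minus PWK was -0.0075 with hepatocyte markers as a covariate and -0.0096 to 0.30 when each array was left out. With the mean of both Bhmt probe sets, F1 of CAST and WSB minus CAST was -0.056 in kidney, CAST minus WSB was -0.12 in liver and F1 of CAST and WSB minus WSB was -0.29 in liver. With the animal as a replicate block, kidney minus liver Bhmt was -4.62 and the 9 tissue differences all remained called. Leaving out single arrays gave kidney counts of 22 to 24 (inbred), 9 to 11 (mid-parent), 30 to 33 (each parent) and 3 to 4 (sex), and liver counts of 17 to 20, 8 to 11, 28 to 31 and 4 to 5. The calls most often lost were Chdh in F1 of CAST and PWK minus CAST in kidney (13 arrays) and Gnmt in F1 of CAST and PWK minus PWK in liver (18 arrays).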
